A study of Mus musculus with 4 samples.

Results

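The JAK, STAT and SOCS genes examined here are 9 mouse genes of cytokine signalling. They comprise the 4 Janus kinases *Jak1*, *Jak2*, *Jak3* and *Tyk2*, the 3 transcription factors *Stat2*, *Stat3* and *Stat6*, and the 2 feedback inhibitors *Socs1* and *Socs3*. They were taken by gene symbol, and all 9 were found among the 25655 genes of the deposited tables. Of the 9 genes, 8 had a mean TPM (a transcript level normalized for transcript length and library size) of the 4 libraries over 10, the limit used for counting genes, and *Socs1* did not.

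Cytokine receptors such as those for G-CSF, GM-CSF, IL-6, IL-4 and the interferons have no kinase of their own and carry a pair of Janus kinases (JAKs) on their intracellular tails. When a cytokine binds, the JAKs phosphorylate the receptor and then STAT proteins, which pair, enter the nucleus and switch on genes, among them the SOCS genes, whose products shut the receptor down again. In neutrophils, STAT3 acts downstream of the G-CSF receptor, and SOCS3 is the inhibitor that limits it.

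RNA-Seq was performed on neutrophils sorted as CD45.2+CD11b+Ly6G+ cells from the hearts of male mice on the C57BL/6 background on day 3 after myocardial ischemia and reperfusion (MI/R). WT mice and mice without CD300a (*Cd300a-/-*), an inhibitory receptor for phosphatidylserine on myeloid cells, were compared, each with SiglecF hi and SiglecF lo neutrophils as separate samples, which the sample labels call SiglecF positive and negative. Each of the 4 groups is 1 library from a pool of 8 mice, all groups had MI/R, and no uninjured heart was included. No difference between groups therefore has a replicate check, and no P value is given. The 95% counting intervals below cover counting error only, and the reads carry no molecular identifiers, so that copies of 1 molecule may be counted more than once. The SiglecF hi libraries hold 19278243 (WT) and 17632989 (*Cd300a-/-*) counts and the SiglecF lo libraries 9631901 and 10988619, so that SiglecF lo values are the less precise. The comparisons below share these 4 libraries and are not independent of each other.

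The labels were first checked against the transcripts. In WT mice *Cd300a* was at 162.9 TPM in the SiglecF hi subset and 127 TPM in the SiglecF lo subset, and in *Cd300a-/-* mice at 0.740 and 1.06 TPM. *Siglecf* was at 354 and 405 TPM in the SiglecF hi libraries and at 11.3 and 15.3 TPM in the SiglecF lo libraries, WT first. Both genes separated the libraries as labelled. *Itgam* (CD11b) and *Ptprc* (CD45), also used for sorting, were at 337 to 550.4 and 608 to 710.0 TPM over the 4 libraries. *Ly6g*, whose protein was used for sorting, was at 11.1 TPM in WT SiglecF hi, 41.9 TPM in *Cd300a-/-* SiglecF hi, 330.4 TPM in WT SiglecF lo and 889 TPM in *Cd300a-/-* SiglecF lo neutrophils, so its transcript was scarce in the SiglecF hi libraries. Summed over 7 neutrophil markers, of which *S100a9* was the most abundant, TPM was 29639, 35219, 156809 and 204746 in the same order, and no marker was at 0.

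Transcripts of other cell types were present as well. The 7 macrophage markers summed to 8240.4 TPM in WT SiglecF hi, 7188 TPM in *Cd300a-/-* SiglecF hi, 3263 TPM in WT SiglecF lo and 3063 TPM in *Cd300a-/-* SiglecF lo neutrophils, with *C1qb* the most abundant and none at 0. The 5 fibroblast markers, led by *Dcn*, summed to 1765, 1211, 829 and 769 TPM, and the 4 cardiomyocyte markers, led by *Myl2*, to 35.6, 50.5, 33.1 and 24.2 TPM. On deposited TPM, macrophage and fibroblast transcripts were thus higher in both SiglecF hi libraries. The 3 endothelial markers *Pecam1*, *Cdh5* and *Kdr* summed to 48.6, 65.1, 89.6 and 29.5 TPM, lower in *Cd300a-/-* SiglecF lo than in WT SiglecF lo neutrophils. Lymphocyte and eosinophil transcripts were scarce. The eosinophil markers, led by *Ccr3*, summed to 5.53, 5.81, 2.14 and 1.98 TPM, the T and NK cell markers, led by *Cd3d*, to 1.71, 4.59, 6.71 and 9.82 TPM, and the B cell markers, led by *Cd79a*, to 2.42, 7.10, 2.78 and 4.0 TPM. The eosinophil gene *Epx* had 0 counts in all 4 libraries, which allows up to 3 counts in each, and *Prg2* had 0 in all but the WT SiglecF hi library, with 2 counts. *Cd3e* had 0 counts in all libraries but WT SiglecF lo, and *Cd79a* and *Ms4a1* had 0 in that library. In bulk samples, fewer cells of a type and less RNA per cell cannot be told apart.

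Among the 9 genes, *Socs3* was the most abundant transcript in each of the 4 libraries, with a mean of 428 TPM. *Jak1* (180.1 TPM), *Stat6* (147 TPM), *Stat3* (127 TPM) and *Jak2* (98.2 TPM) followed by mean level, then *Jak3* (27.2 TPM), *Stat2* (24.0 TPM), *Tyk2* (14.9 TPM) and *Socs1* (9.82 TPM). This order of the means was not kept in each library. In *Cd300a-/-* SiglecF lo neutrophils *Stat6* stood above *Jak1*, with counting intervals of 173 to 184 and 167 to 177 TPM that overlapped. In *Cd300a-/-* SiglecF hi neutrophils *Stat3* and *Stat6* had overlapping intervals, at 142 to 149 and 135 to 144 TPM, and so did *Stat6* and *Jak2* (133 to 140 TPM). *Jak3* and *Socs1* had overlapping intervals in WT SiglecF lo neutrophils, at 12.1 to 15.1 and 12.3 to 16.2 TPM, and both stood below *Stat2* and above *Tyk2* there. No other neighbours in the order of a library overlapped.

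**Figure D1:**
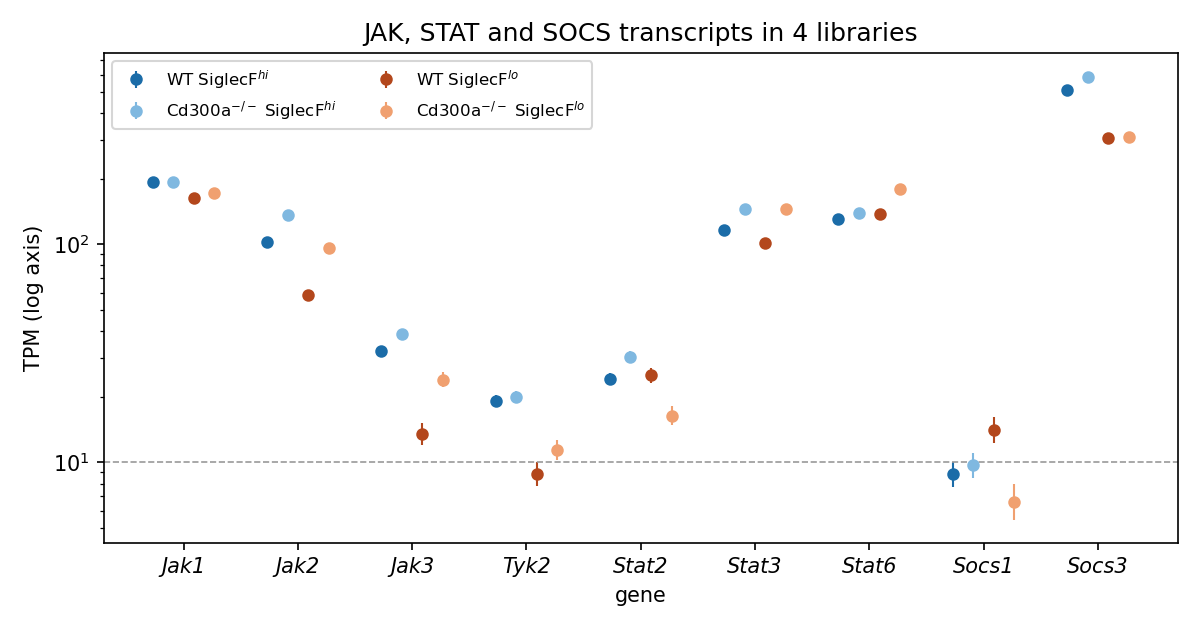
TPM of the 9 JAK, STAT and SOCS genes (log axis) in each of the 4 libraries, with bars for the 95% counting interval and a dashed line at the limit of 10 TPM. *Socs3* was highest in every library, *Stat2* and *Socs1* were lower in *Cd300a-/-* SiglecF lo than in WT SiglecF lo neutrophils, at 16.4 and 6.61 against 25.1 and 14.1 TPM, and *Jak2* and *Jak3* were lowest in WT SiglecF lo neutrophils, at 58.5 and 13.6 TPM.

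Between genotypes, the 9 genes were compared on a log2 scale, as *Cd300a-/-* over WT after 1 was added to each TPM, which makes differences of scarce transcripts look smaller, and a ratio beyond 0.5 in either direction was counted as past the threshold, also where its counting interval includes 0.5. In SiglecF lo neutrophils, *Jak2*, *Jak3* and *Stat3*, 3 of the 8 genes over the limit, were higher in *Cd300a-/-*, beside 16.4% of all 6523 genes over the limit, and *Stat2*, 1 of the 8, was lower, beside 19.9% of all genes. In SiglecF hi neutrophils 0 of the 8 passed the threshold in either direction, where 3.31% of all genes were higher and 3.46% lower. The median log2 ratio of the 8 genes was 0.35 in the SiglecF lo subset and 0.23 in the SiglecF hi subset, while that of all genes was -0.02 and 0.04. The 4 genes past the threshold in SiglecF lo neutrophils kept their direction with TMM-scaled counts, counts with median-of-ratios factors and centred ratios.

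The Janus kinases differed among themselves. *Jak1*, which serves most of the receptor families, was at 192 TPM in WT SiglecF hi, 193 TPM in *Cd300a-/-* SiglecF hi, 163 TPM in WT SiglecF lo and 172 TPM in *Cd300a-/-* SiglecF lo neutrophils. Its log2 ratio of *Cd300a-/-* to WT was 0.07 in SiglecF lo (95% counting interval 0.01 to 0.13) and 0.01 in SiglecF hi neutrophils (-0.04 to 0.05). *Jak1* was therefore nearly level between genotypes in both subsets. *Jak2*, the kinase of the GM-CSF receptor and one of those on the G-CSF receptor, was at 102 TPM in WT SiglecF hi, 136 TPM in *Cd300a-/-* SiglecF hi, 58.5 TPM in WT SiglecF lo and 96.1 TPM in *Cd300a-/-* SiglecF lo neutrophils. It was higher in *Cd300a-/-* in both subsets, with a log2 ratio of 0.71 (0.62 to 0.80) in SiglecF lo and 0.41 (0.36 to 0.47) in SiglecF hi neutrophils, and only the first passed the threshold.

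*Jak3*, which pairs with the common gamma chain of the IL-2 and IL-4 receptor families, was at 32.5, 38.8, 13.6 and 24.0 TPM in WT SiglecF hi, *Cd300a-/-* SiglecF hi, WT SiglecF lo and *Cd300a-/-* SiglecF lo neutrophils. Its *Cd300a-/-* to WT ratio was 0.78 (0.59 to 0.96) in SiglecF lo and 0.25 (0.14 to 0.36) in SiglecF hi neutrophils. WT SiglecF lo neutrophils held the lowest level. The gene model of *Jak3* shares 1362 bases with *Insl3* on the same strand, and the WT SiglecF lo library has 48 counts of *Insl3* while the others have 0, so the division of reads between these overlapping genes is uncertain. With these 48 counts given to *Jak3*, an alternative chosen after seeing the data, its ratio in SiglecF lo neutrophils was 0.59 (0.41 to 0.76), an interval that includes the threshold. *Tyk2*, a kinase of the interferon, IL-10 and IL-12 receptors, was at 19.2, 20.0, 8.89 and 11.4 TPM in the same order. Its ratio was 0.33 (0.12 to 0.54) in SiglecF lo and 0.05 (-0.07 to 0.18) in SiglecF hi neutrophils, inside the threshold in both.

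A ratio between genes of 1 library does not depend on scaling. The TPM ratio of *Jak2* to *Jak1* was 0.359 (0.338 to 0.380) in WT SiglecF lo and 0.559 (0.534 to 0.586) in *Cd300a-/-* SiglecF lo neutrophils, and 0.531 (0.512 to 0.551) in WT SiglecF hi and 0.705 (0.681 to 0.730) in *Cd300a-/-* SiglecF hi neutrophils. In both subsets the interval in *Cd300a-/-* lay above that in WT. *Jak1* made up 66.8% of the summed TPM of the 4 kinases for WT and 56.6% for *Cd300a-/-* SiglecF lo neutrophils, and 55.6% and 49.8% for SiglecF hi neutrophils. The summed TPM itself was 244 and 303 in the SiglecF lo and 346 and 388 in the SiglecF hi libraries, WT first.

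*Stat3*, the factor downstream of the G-CSF, IL-6 and IL-10 receptors, was at 117 TPM in WT SiglecF hi, 146 TPM in *Cd300a-/-* SiglecF hi, 101.5 TPM in WT SiglecF lo and 145 TPM in *Cd300a-/-* SiglecF lo neutrophils. Within each subset the *Cd300a-/-* library was above the WT library. The log2 ratio of *Cd300a-/-* to WT was 0.51 (0.44 to 0.57) in SiglecF lo neutrophils, an interval that includes the threshold of 0.5, and 0.32 (0.27 to 0.37) in SiglecF hi neutrophils. These are mRNA levels, and phosphorylation of STAT3 was not analysed here. *Stat3* (chromosome 11, 100775924 to 100830366, minus strand, GRCm39) overlaps *Stat5a* on the opposite strand by 72 bases, and the kit named in the methods does not mark strand. *Stat5a* had 108 to 343 counts beside 3248 to 7124 for *Stat3*, and how reads of the overlap were divided was not tested. *Stat6*, the factor of IL-4 and IL-13 signalling, was at 131, 139, 137 and 179 TPM in WT SiglecF hi, *Cd300a-/-* SiglecF hi, WT SiglecF lo and *Cd300a-/-* SiglecF lo neutrophils. Its ratio was 0.37 (0.30 to 0.45) in SiglecF lo and 0.09 (0.03 to 0.15) in SiglecF hi neutrophils, inside the threshold in both. *Stat6* overlaps *Nab2*, with 307 to 718 counts, on the opposite strand by 40 bases, and the division of these reads was not tested either.

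*Stat2*, which joins IRF9 in the complex ISGF3 after type I interferon, went the other way. It was at 24.1 TPM in WT SiglecF hi, 30.5 TPM in *Cd300a-/-* SiglecF hi, 25.1 TPM in WT SiglecF lo and 16.4 TPM in *Cd300a-/-* SiglecF lo neutrophils, with 409 counts in the last. The log2 ratio of *Cd300a-/-* to WT was -0.58 (-0.76 to -0.41) in SiglecF lo neutrophils, an interval that includes the threshold of -0.5, and 0.33 (0.21 to 0.45) in SiglecF hi neutrophils, so *Stat2* was lower in *Cd300a-/-* in one subset and higher in the other. The TPM ratio of *Stat3* to *Stat2* was 4.85, 4.77 and 4.05 in WT SiglecF hi, *Cd300a-/-* SiglecF hi and WT SiglecF lo neutrophils and 8.81 (7.96 to 9.74) in *Cd300a-/-* SiglecF lo neutrophils. The balance between these STAT transcripts thus differed in *Cd300a-/-* SiglecF lo neutrophils from that in the other 3 libraries.

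*Socs1*, an inhibitor that binds JAKs directly and limits interferon signalling, was under the limit of 10 mean TPM and so was not among the genes counted. It was at 8.82 TPM in WT SiglecF hi, 9.72 TPM in *Cd300a-/-* SiglecF hi, 14.1 TPM in WT SiglecF lo and 6.61 TPM in *Cd300a-/-* SiglecF lo neutrophils, from 225, 222, 211 and 109 counts. Its log2 ratio of *Cd300a-/-* to WT was -0.99 (-1.29 to -0.69) in SiglecF lo and 0.13 (-0.11 to 0.37) in SiglecF hi neutrophils. Like *Stat2*, *Socs1* was lower in *Cd300a-/-* SiglecF lo than in WT SiglecF lo neutrophils. *Socs3*, the inhibitor of G-CSF and IL-6 receptor signalling, was at 509 TPM in WT SiglecF hi, 585 TPM in *Cd300a-/-* SiglecF hi, 307 TPM in WT SiglecF lo and 309 TPM in *Cd300a-/-* SiglecF lo neutrophils. Its genotype ratio was 0.01 (-0.05 to 0.07) in SiglecF lo and 0.20 (0.16 to 0.24) in SiglecF hi neutrophils. With *Stat3* higher and *Socs3* level between genotypes in SiglecF lo neutrophils, the TPM ratio of *Socs3* to *Stat3* was 3.03 (2.89 to 3.17) in WT SiglecF lo and 2.14 (2.06 to 2.23) in *Cd300a-/-* SiglecF lo neutrophils, and 4.36 and 4.02 in WT SiglecF hi and *Cd300a-/-* SiglecF hi neutrophils.

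The genotype ratio in SiglecF lo minus that in SiglecF hi neutrophils describes how far the subsets differed, although with 1 library per group the difference was not tested. It was -0.91 (-1.13 to -0.70) for *Stat2* and 0.53 (0.31 to 0.74) for *Jak3*, 1 of the 8 genes beyond 0.5 in each direction, where 20.3% of all genes were below -0.5 and 13.8% above 0.5. With the *Insl3* counts given to *Jak3* its difference was 0.34 (0.13 to 0.54), inside the threshold, so that its place beyond 0.5 depends on the division of these reads. For *Socs1* it was -1.12 (-1.50 to -0.73). The other 6 genes had differences between -0.19 (*Socs3*) and 0.30 (*Jak2*). Among all genes, too, more passed the threshold between genotypes in SiglecF lo than in SiglecF hi neutrophils, where the libraries are also the deeper ones.

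**Figure D2:**
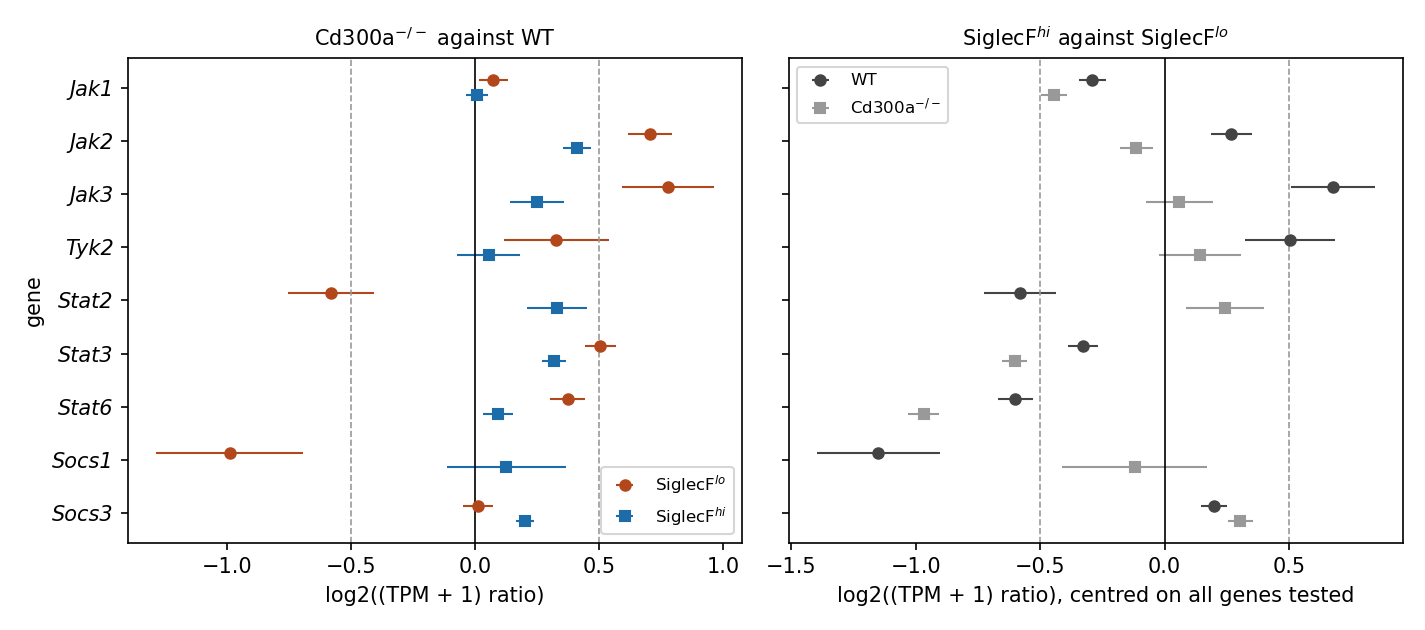
Log2((TPM + 1) ratios) of the 9 genes with 95% counting intervals, for *Cd300a-/-* against WT in each subset (left) and for SiglecF hi against SiglecF lo neutrophils in each genotype after centring on all genes over the limit (right), with dashed lines at 0.5 in both directions. On the left *Jak2* and *Jak3* lie at 0.71 and 0.78 and *Stat2* and *Socs1* at -0.58 and -0.99 in SiglecF lo neutrophils, and on the right *Stat6* lies at -0.60 in WT and -0.97 in *Cd300a-/-*.

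Between subsets, TPM is shifted for most genes. Over all genes over the limit, the ratio of the SiglecF hi to the SiglecF lo library had a median of 0.53 in WT and 0.61 in *Cd300a-/-*, and *S100a8* and *S100a9* together took 2.41% and 2.78% of all TPM in the SiglecF hi libraries and 13.8% and 17.3% in the SiglecF lo libraries, WT first. On deposited TPM, 4 of the 8 genes were higher in SiglecF hi neutrophils in WT (*Jak2*, *Jak3*, *Tyk2* and *Socs3*) and 4 in *Cd300a-/-* (*Jak3*, *Tyk2*, *Stat2* and *Socs3*), where 51.9% and 56.6% of all genes were higher. None of the 8 was lower, beside 7.47% and 7.97% of all genes. The higher counts are close to the background, and the ratios are therefore also given relative to the median of all genes.

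After centring, *Jak3* (0.68, 95% counting interval 0.51 to 0.84) and *Tyk2* (0.50, 0.32 to 0.69) were higher in SiglecF hi than in SiglecF lo neutrophils of WT mice, 2 of the 8 genes beside 19.3% of all genes, but neither was firmly past the threshold. *Tyk2* had 0.49 with median-of-ratios factors, and *Jak3* had a centred ratio of 0.48 (0.32 to 0.64) with the *Insl3* counts given to it. *Stat2* (-0.58, -0.73 to -0.44, an interval that includes -0.5) and *Stat6* (-0.60, -0.67 to -0.53) were lower, 2 of the 8 beside 20.9% of all genes. *Socs1*, under the limit and not counted, had centred ratios of -1.15 (-1.40 to -0.90) in WT and -0.12 (-0.41 to 0.17) in *Cd300a-/-*, against -0.62 (-0.87 to -0.37) and 0.49 (0.20 to 0.79) on deposited TPM, so that only in WT was its direction the same under each scaling. In *Cd300a-/-* mice 0 of the 8 were higher, beside 21.2% of all genes, and *Stat3* (-0.60, -0.65 to -0.55) and *Stat6* (-0.97, -1.03 to -0.90) were lower, 2 of the 8 beside 23.6%. *Stat6* was thus the only member past the threshold in both genotypes after centring. On deposited TPM it passed in neither, at -0.07 in WT and -0.35 in *Cd300a-/-*, while *Jak3*, *Tyk2* and *Socs3* passed in both. *Stat2* had -0.06 (-0.20 to 0.09) in WT on deposited TPM. *Socs3* had centred ratios of 0.20 and 0.30, close to the median of all genes, against 0.73 and 0.92 on deposited TPM. *Jak1* had deposited ratios of 0.24 in WT and 0.17 in *Cd300a-/-* and centred ratios of -0.29 and -0.44, so that its direction between subsets depends on the scaling. *Stat3* likewise had deposited ratios of 0.20 in WT and 0.01 (-0.04 to 0.06) in *Cd300a-/-* against centred ratios of -0.33 and -0.60. *Jak2* in *Cd300a-/-* had 0.4997 on deposited TPM and -0.11 after centring. Macrophage markers were higher in SiglecF hi neutrophils in the same centred comparison, 6 of 7 past 0.5 in WT and 4 of 7 in *Cd300a-/-*, and fibroblast markers in 2 of the 4 over the limit in WT and 0 of 4 in *Cd300a-/-*. Neutrophil markers were lower in 7 of 7 in both genotypes, with medians of -1.75 in WT and -1.97 in *Cd300a-/-*. Of the 2 endothelial markers over the limit 2 were lower in WT and 1 was higher in *Cd300a-/-*, and of the 3 cardiomyocyte markers 2 were lower in WT and 1 was higher in *Cd300a-/-*. The higher cardiomyocyte marker was *Tnnt2*, which is over the limit only through its SiglecF hi libraries. *Actc1*, 1 of the 2 lower in WT, is over the limit only through the libraries where it is higher, with its highest level (12.3 TPM) in WT SiglecF lo neutrophils. The shares of all genes beside these counts are those given above for the centred ratios. The part of these transcripts in the subset ratios was not tested.

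Of 3 other STAT genes 2 were over the limit, and 1 of them, *Stat4*, was higher past the threshold in *Cd300a-/-*, in SiglecF lo neutrophils only, beside 16.4% higher and 19.9% lower among all genes in that subset and 3.31% and 3.46% in the SiglecF hi subset. *Stat4*, a factor of IL-12 signalling, was at 13.3, 14.9, 23.4 and 41.6 TPM in WT SiglecF hi, *Cd300a-/-* SiglecF hi, WT SiglecF lo and *Cd300a-/-* SiglecF lo neutrophils, with a genotype ratio of 0.80 (0.63 to 0.98) in SiglecF lo and 0.15 (-0.04 to 0.35) in SiglecF hi neutrophils. It was highest in *Cd300a-/-* SiglecF lo neutrophils. *Stat5b*, a factor of GM-CSF and growth hormone signalling, had ratios of 0.36 (0.23 to 0.49) and 0.19 (0.08 to 0.30). *Stat5a*, under the limit and chosen for mention after its values were seen, had -0.66 (-0.96 to -0.36) and 0.16 (-0.04 to 0.35). Its overlap with *Stat3*, given above, leaves the division of reads uncertain.

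Of 6 other SOCS family genes, only *Socs4* was over the limit, and only through its SiglecF hi libraries, at 16.6 and 23.8 TPM beside 4.84 and 9.03 TPM in the SiglecF lo libraries, WT first. It had genotype ratios of 0.78 (0.56 to 1.01) in SiglecF lo and 0.49 (0.38 to 0.61) in SiglecF hi neutrophils, and past 0.5 in SiglecF lo neutrophils were 16.4% of all genes upward and 19.9% downward. *Cish*, an inhibitor that is itself induced by STAT5, was at 8.25 TPM in WT SiglecF hi, 11.0 TPM in *Cd300a-/-* SiglecF hi, 7.20 TPM in WT SiglecF lo and 1.26 TPM in *Cd300a-/-* SiglecF lo neutrophils, from 264, 315, 135 and 26 counts. *Socs6*, an inhibitor of receptor tyrosine kinases, had ratios of 0.29 (0.03 to 0.55) in SiglecF lo and -0.21 (-0.35 to -0.07) in SiglecF hi neutrophils. The ratio of *Cish* was -1.86 (-2.24 to -1.49) in SiglecF lo and 0.38 (0.16 to 0.59) in SiglecF hi neutrophils. *Cish* was therefore, like *Stat2* and *Socs1*, lower in *Cd300a-/-* than in WT among SiglecF lo neutrophils. *Socs7*, also under the limit and chosen for mention after its values were seen, went the other way, with ratios of 0.89 (0.58 to 1.20) from 35 and 106 counts in SiglecF lo and 0.46 (0.28 to 0.64) in SiglecF hi neutrophils. *Socs3* alone made up between 88.9% and 91.0% of the summed TPM of the 8 SOCS family genes in each library.

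Among 11 other inhibitors of the pathway, which include phosphatases, PIAS proteins and adaptor proteins, 10 were over the limit. In SiglecF lo neutrophils 1 was higher in *Cd300a-/-* and 0 lower, beside 16.4% higher and 19.9% lower among all genes, with a median ratio of 0.16, and in SiglecF hi neutrophils 0 passed the threshold, beside 3.31% higher and 3.46% lower among all genes there, with a median of 0.14. The gene past the threshold was *Sh2b3*, which encodes the adaptor LNK that restrains JAK2, with a ratio of 0.57 (0.43 to 0.71). *Ptpn6*, which encodes the phosphatase SHP-1 that inhibitory receptors such as CD300a recruit, was the most abundant, at 422, 464, 384 and 431 TPM in WT SiglecF hi, *Cd300a-/-* SiglecF hi, WT SiglecF lo and *Cd300a-/-* SiglecF lo neutrophils. The phosphatases *Ptpn1* (0.16, 0.10 to 0.23) and *Ptpn2* (-0.10, -0.23 to 0.04) had small ratios in SiglecF lo neutrophils.

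Of 35 receptor genes that signal through JAKs, 19 were over the limit. In SiglecF lo neutrophils 3 were higher and 1 lower in *Cd300a-/-*, beside 16.4% higher and 19.9% lower among all genes, with a median of 0.21, and in SiglecF hi neutrophils none of the 19 passed the threshold, beside 3.31% higher and 3.46% lower among all genes there, with a median of 0.05. The 3 higher genes encode chains of the GM-CSF and IL-3 receptors, while *Il3ra*, a further chain of the IL-3 receptor chosen for mention after its values were seen, had a ratio of -0.15 (-0.48 to 0.18) at 8.84 and 7.88 TPM. *Csf2rb2* had a ratio of 0.93 (0.83 to 1.03), *Csf2rb* one of 0.59 (0.54 to 0.64) and *Csf2ra* one of 0.56 (0.49 to 0.63). *Csf2rb* and *Csf2rb2* are near-identical copies, and how reads were divided between them is uncertain. *Il11ra1*, the IL-11 receptor chain, was the lower gene, at 6.51 TPM in WT SiglecF lo and 3.80 TPM in *Cd300a-/-* SiglecF lo neutrophils, and it was counted only because its SiglecF hi libraries, at 18.4 and 18.1 TPM, bring its mean over the limit. *Csf3r*, the G-CSF receptor and the most abundant of the 35, was at 1069, 1109, 1443 and 1749.6 TPM in WT SiglecF hi, *Cd300a-/-* SiglecF hi, WT SiglecF lo and *Cd300a-/-* SiglecF lo neutrophils, with genotype ratios of 0.28 (0.25 to 0.30) in SiglecF lo and 0.05 (0.03 to 0.08) in SiglecF hi neutrophils. It is also among the neutrophil markers. *Ifngr1*, a chain of the interferon gamma receptor, had ratios of 0.22 (0.15 to 0.30) and 0.17 (0.11 to 0.23).

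Of the 10 genes listed as induced by STAT3, all 10 were over the limit. None was higher and 1 was lower in *Cd300a-/-* SiglecF lo than in WT SiglecF lo neutrophils, beside 16.4% higher and 19.9% lower among all genes, and none passed the threshold in SiglecF hi neutrophils, beside 3.31% higher and 3.46% lower among all genes there, with a median of 0.16 in both. The most abundant were *Junb* and *Cebpb*, which encode transcription factors, and *Mcl1*, which encodes a survival protein, with ratios of -0.20 (-0.22 to -0.17), 0.04 (0.01 to 0.06) and 0.27 (0.24 to 0.29) in SiglecF lo neutrophils. The lower gene was the cyclin gene *Ccnd1*, at 28.9 TPM in WT SiglecF lo and 10.2 TPM in *Cd300a-/-* SiglecF lo neutrophils, with a ratio of -1.42 (-1.63 to -1.21). Of 8 genes known to be induced by STAT6, only 2 were over the limit, of which 1 was higher and 0 were lower in *Cd300a-/-* SiglecF lo than in WT SiglecF lo neutrophils (beside 16.4% higher and 19.9% lower among all genes) and 0 past the threshold in SiglecF hi neutrophils (beside 3.31% higher and 3.46% lower among all genes there). *Mrc1*, which is also a macrophage marker, had a ratio of 0.66 (0.57 to 0.76), and *Chil3*, which encodes a chitinase-like protein, one of -0.00 (-0.06 to 0.05) in SiglecF lo neutrophils.

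The ISGF3 list holds *Irf9* and genes induced by the complex. Of its 10 genes 8 were over the limit, and 4 of the 8 were lower and 0 higher in *Cd300a-/-* SiglecF lo than in WT SiglecF lo neutrophils, beside 16.4% higher and 19.9% lower among all genes, with a median of -0.50, and in SiglecF hi neutrophils none passed the threshold, beside 3.31% higher and 3.46% lower among all genes there, with a median of 0.11. *Ifit1*, which encodes a protein that binds viral RNA, was at 124, 143, 221 and 79.8 TPM in WT SiglecF hi, *Cd300a-/-* SiglecF hi, WT SiglecF lo and *Cd300a-/-* SiglecF lo neutrophils. The ubiquitin-like gene *Isg15* was at 466, 482, 1016 and 518 TPM in the same order. Both were highest in WT SiglecF lo neutrophils. The genotype ratios in SiglecF lo neutrophils were -1.46 (-1.55 to -1.36) for *Ifit1*, -0.97 (-1.05 to -0.89) for *Isg15* and -0.96 (-1.07 to -0.86) for *Ifit3*, whose near-identical copy *Ifit3b* leaves the division of reads uncertain. The abundant genes *Irf7*, an interferon regulatory factor, and *Oasl2* had ratios of -0.09 (-0.17 to -0.01) and -0.27 (-0.33 to -0.21) and did not pass the threshold. *Irf9*, the partner of STAT2 in the complex and chosen for mention after its values were seen, had 0.39 (0.29 to 0.50), the only one of the 8 above 0. Among all 6523 genes over the limit, 3185 were above 0 in this comparison.

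The endothelial markers, like *Stat2* and *Socs1*, were lower in *Cd300a-/-* SiglecF lo than in WT SiglecF lo neutrophils. *Pecam1*, the most abundant, was at 23.2 TPM in WT SiglecF hi, 30.4 TPM in *Cd300a-/-* SiglecF hi, 57.5 TPM in WT SiglecF lo and 15.6 TPM in *Cd300a-/-* SiglecF lo neutrophils, and all 3 markers were lower in *Cd300a-/-* in SiglecF lo neutrophils, with ratios of -1.82 (*Pecam1*, -1.98 to -1.66), -1.26 (*Cdh5*, -1.47 to -1.06) and -0.65 (*Kdr*, -0.91 to -0.39). None of the 3 was at 0 counts in a library. *Pecam1* is also expressed by leukocytes. The part of endothelial transcripts, and of the cardiomyocyte transcripts given below, in the ratios of *Stat2*, *Socs1*, *Cish* and the ISGF3 genes was not tested. Macrophage markers went both ways in this comparison, from -0.34 (*Cd68*) to 0.66 (*Mrc1*), with 1 of 7 higher, 0 lower and a median of 0.00. Neutrophil markers had 2 of 7 higher, 0 lower and a median of 0.28, beside 16.4% higher and 19.9% lower among all genes. The part of macrophage and neutrophil transcripts in the higher *Jak2*, *Jak3* and *Stat3* levels was not tested either. Of the 4 fibroblast markers over the limit 0 passed the threshold in SiglecF lo neutrophils and 3 were lower in *Cd300a-/-* in SiglecF hi neutrophils, beside 3.31% higher and 3.46% lower among all genes there, and of the 3 cardiomyocyte markers over the limit 1 was lower in *Cd300a-/-* in SiglecF lo and 1 higher in SiglecF hi neutrophils. All 3 had ratios below 0 in SiglecF lo and above 0 in SiglecF hi neutrophils. Some of these were small, such as -0.07 for *Myl2* in SiglecF lo and 0.09 for *Actc1* in SiglecF hi neutrophils. Each sign alone was common among all 6523 genes over the limit. A genotype ratio above 0 was found for 3185 of them between the SiglecF lo libraries and for 3682 between the SiglecF hi libraries. *Tnnt2* was over the limit only through its SiglecF hi libraries (13.2 and 17.9 TPM, WT first). It was at 6.70 and 5.22 TPM in the SiglecF lo libraries. In all 3 the ratio in SiglecF lo minus that in SiglecF hi neutrophils was below -0.5, beside 20.3% of all genes, with a median of -0.78. Their counting intervals all include -0.5, at -1.46 to -0.44 (*Actc1*), -1.29 to -0.15 (*Tnnt2*) and -1.23 to -0.33 (*Myl2*). No eosinophil, T and NK or B cell marker was over the limit.

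**Figure D3:**
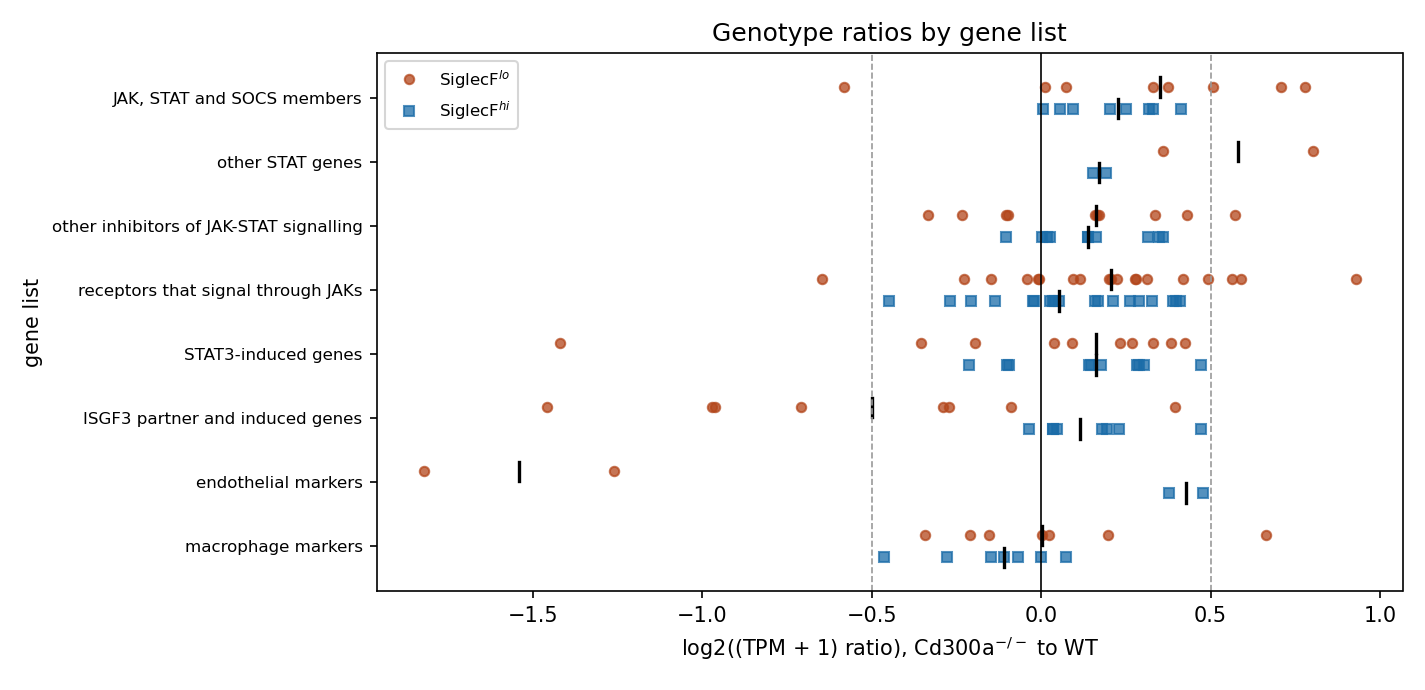
Log2((TPM + 1) ratios), *Cd300a-/-* over WT, for each gene over the limit in 8 gene lists, in SiglecF lo (circles) and SiglecF hi (squares) neutrophils, with a black bar at each median and dashed lines at 0.5 in both directions. In SiglecF lo neutrophils the ISGF3 list has a median of -0.50 and the endothelial markers one of -1.54, while in SiglecF hi neutrophils these medians are 0.11 and 0.43.

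The promoters of the 9 genes were read from RefSeq (GRCm38.p6, from 250 bases before to 50 bases after the start), where all 9 had an entry. After the values were seen, the windows were searched on both strands for the core of the interferon-stimulated response element (GAAA and GAAA with 2 bases between), which interferon regulatory factors also bind, and for the core to which STAT dimers bind (TTC and GAA with 3 bases between), which reads the same on both strands. The interferon core was found in 2 of the 9 windows, those of *Stat2* and *Socs1*, in 5 of 9 windows of the ISGF3 list, in 1 of 6 windows of the other STAT genes, in 0 of 2 windows of the other SOCS genes and in 3.44% of 32851 promoters of the same length. The match among the other STAT genes is in 1 window of *Stat4*, which was higher in *Cd300a-/-* SiglecF lo than in WT SiglecF lo neutrophils while *Stat2* and *Socs1* were lower. The STAT core was found in 1 of the 9 windows, that of *Socs3*, in 1 of 9 windows of the ISGF3 list, in 0 of 6 of the other STAT genes, in 1 of 2 of the other SOCS genes, that of *Cish* with 2 matches, and in 8.30% of all promoters. These windows do not cover the lists evenly, as 8 of the 10 genes of the ISGF3 list have a window (1 of them 2), each of the 3 other STAT genes has 2 and only 2 of the 6 other SOCS genes have any. Stretches of 60 bases around these matches are shown 5′ to 3′ on the strand of the gene, because *Stat2* and *Socs1* are the members with lower levels in *Cd300a-/-* SiglecF lo than in WT SiglecF lo neutrophils and *Socs3* is the most abundant member. Capitals mark the matches, which begin 222 bases before the start in *Stat2* (reverse strand), 83 and 77 bases before it in *Socs1* (forward strand, overlapping each other) and 154 bases before it in *Socs3*. The stretches lie at chr10:128270250-128270309 (plus strand), chr16:10785583-10785642 (minus strand) and chr11:117969487-117969546 (minus strand) of GRCm38.p6.
Stat2: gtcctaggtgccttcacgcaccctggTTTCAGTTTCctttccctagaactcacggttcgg
Socs1: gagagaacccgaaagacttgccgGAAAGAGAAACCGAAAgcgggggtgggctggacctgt
Socs3: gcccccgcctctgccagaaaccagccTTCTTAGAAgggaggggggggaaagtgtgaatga
A match describes these letters and is neither a site nor a cause, and the absence of a match in the other windows says nothing about the factors.

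The genes with the most similar profiles over the 4 libraries were taken by the smallest Euclidean distance of centred log2(TPM + 1) values among the 6523 genes. For *Stat2* these were *Xaf1* (0.0163), *Map2k1* (0.0310) and *Mia2* (0.0405), and *Xaf1*, at 20.5, 26.1, 21.3 and 13.7 TPM in WT SiglecF hi, *Cd300a-/-* SiglecF hi, WT SiglecF lo and *Cd300a-/-* SiglecF lo neutrophils, had nearly the level of *Stat2* as well. For *Stat3* they were *Bsdc1* (0.0358), *Chst11* (0.0413) and *Prkag1* (0.0575). For *Jak2* they were *N4bp1* (0.0650), *Hspa4l* (0.0683) and *Ccnt1* (0.0996), and for *Socs3* *Afg3l1* (0.0283) and *Ireb2* (0.0422). With 4 libraries such likeness describes the profiles only.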

How the data were processed

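Values of 4 RNA-Seq libraries were used, 1 for each genotype and neutrophil subset. RNA was extracted with ISOGEN and selected for poly(A), and the methods also name NEBNext Ultra II libraries, NextSeq sequencing of read pairs and CLC Genomics Workbench. GRCm39 is the build in the submitters' processing notes, and aligner settings and annotation release are not given in the sources used here. The deposited count is a whole number per gene without normalization, and the files do not say if it counts reads or pairs. The deposited RPKM is normalized for gene length and library size and served here only to derive gene lengths. The deposited TPM is normalized for length, with the same sum in each library. The deposited signal, called CPM per the file headers, is the count scaled to library size and multiplied by 1 factor per library (0.884 and 0.893 for SiglecF hi, 1.10 and 1.15 for SiglecF lo neutrophils, WT first), and no result uses it.

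TPM ratios used a pseudocount of 1 TPM, a mean TPM over 10 (6523 genes) and a log2 threshold of 0.5. The 95% counting intervals came from the Poisson error of the counts, and a count of 0 allows up to 3 counts. Alternatives were a pseudocount of 0.1, TMM factors (edgeR 4.0.16), median-of-ratios factors (DESeq2 1.42.0), centring on the median of the genes tested, a mean TPM over 1, a TPM over 10 in both libraries compared or in at least 1 library, a log2 threshold of 1 and, for *Jak3*, the counts of the overlapping *Insl3* added. The calculations were tested on simulated counts with Poisson error only. These held no spread between pools and no duplicate reads, so that the test covers the arithmetic alone. R 4.3.3, Python 3.11.15, numpy 2.4.6, pandas 2.3.3, scipy 1.17.1 and matplotlib 3.10.9 were used.

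The 9 members and the gene lists were chosen with earlier results of these data known. Named genes are the members, the sorting markers, of each other list the 3 most abundant and up to 3 with the largest ratio past 0.5 in a comparison, and for *Stat3*, *Jak2*, *Stat2* and *Socs3* the 3 nearest profiles. Exceptions are stated, and some genes are not reported here. Promoters are from RefSeq on GRCm38.p6, and file positions on GRCm39 were not converted.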

Additional observations from a re-analysis of the deposited data

Results flagged for a closer look

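In 5 genes of the pathway the *Cd300a-/-* to WT ratio had opposite signs in the SiglecF lo and SiglecF hi neutrophils, with both counting intervals off 0. They were sought among the 46 of 64 genes (members, other STAT and SOCS genes, inhibitors and receptors) with a TPM over 10 in at least 1 library. The share was 10.9%, beside 15.9% of all 7660 genes with such a level, so it was not higher in the pathway. With 1 library per group these differences were not tested. The ratio in SiglecF lo minus that in SiglecF hi neutrophils was -0.91 for *Stat2* and -2.24 for *Cish*, which were lower in *Cd300a-/-* in SiglecF lo and higher in SiglecF hi neutrophils. *Usp18*, an inhibitor at the type I interferon receptor, had -0.40 in the same direction. *Socs6* had 0.50 and *Crlf2*, the receptor chain for TSLP, had 0.34 in the opposite direction.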

How the results depend on the processing

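No paired analysis was possible because each group has 1 library, and for the same reason no replicate could be left out. Between genotypes, 15 of 16 counts of members, all 14 medians and 72 of 74 member ratios moved little under the alternatives, but with a log2 threshold of 1 the count in SiglecF lo neutrophils went from 4 to 0. The differences between subsets moved within their counting intervals in all 37 cases, under alternatives chosen after seeing the data.

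With the *Insl3* counts given to *Jak3*, its ratio in SiglecF lo neutrophils moved from 0.78 to 0.59 and its difference between subsets from 0.53 to 0.34, under the threshold.

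Between subsets, scaling decided the values. In WT, the median of the members, 0.48, became -0.058 with TMM factors, -0.12 with median-of-ratios factors and -0.045 after centring, and 0.24 with a mean TPM over 1 (9 genes), a TPM over 10 in both libraries (7 genes) or in at least 1 library (9 genes). In *Cd300a-/-*, the median of 0.59 became 0.017 with TMM factors, -0.068 with median-of-ratios factors and -0.027 after centring, and 0.50 with a mean TPM over 1 or a TPM over 10 in at least 1 library. The count in *Cd300a-/-* went from 4, all higher in SiglecF hi neutrophils, to 2, both lower, with each of these 3 scalings. In WT, 4 higher and 0 lower became 2 higher and 2 lower with TMM factors or centring. With median-of-ratios factors 1 was higher and 2 were lower in WT. A log2 threshold of 1 left 2 members in WT and 0 in *Cd300a-/-*. Among the other lists, under alternatives chosen after seeing the data, 2 medians between subsets that were past 0.5 changed sign, each under 3 scalings, and so did smaller ones. In *Cd300a-/-* those past 0.5 were the other inhibitors of the pathway (-0.053 with TMM factors, -0.14 with median-of-ratios factors, -0.10 centred) and the fibroblast markers (in the same order -0.015, -0.10 and -0.050). The shift of the median gene between subsets is what these scalings remove. Its cause was not tested. Low counts limit several genes in SiglecF lo neutrophils, among them *Socs1* with 109 and *Cish* with 26 counts in *Cd300a-/-*.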

Other observations

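Genes of the ligands of these receptors were mostly low, with 6 of 21 over the limit. *Osm*, which encodes oncostatin M, was at 127, 156, 161 and 165 TPM in WT SiglecF hi, *Cd300a-/-* SiglecF hi, WT SiglecF lo and *Cd300a-/-* SiglecF lo neutrophils, and *Ebi3*, a subunit of IL-27, at 108, 136, 101 and 156 TPM. *Il23a*, a subunit of IL-23, was at 96.6 and 94.5 TPM in the SiglecF hi libraries and at 18.2 and 15.8 TPM in the SiglecF lo libraries, WT first, and was higher in SiglecF hi neutrophils after centring too, by 1.82 in WT and 1.89 in *Cd300a-/-* on the log2 scale. *Il6* was at 45.6, 33.2, 56.8 and 15.0 TPM, and in *Cd300a-/-* against WT its log2 ratio was -1.86 (-2.07 to -1.64, 95% counting interval) for SiglecF lo and -0.45 (-0.59 to -0.30) in SiglecF hi neutrophils. *Il6* was lowest in *Cd300a-/-* SiglecF lo neutrophils. *Il10* was at 25.1, 18.7, 4.01 and 9.29 TPM, and its ratio in SiglecF lo neutrophils, 1.04 (0.51 to 1.57), rests on 27 and 69 counts, and it was counted only because its SiglecF hi libraries bring its mean over the limit. In SiglecF lo neutrophils 2 of the 6 ligand genes were higher and 1 was lower in *Cd300a-/-*, beside 16.4% higher and 19.9% lower among all genes, and 0 of 6 passed the threshold in SiglecF hi neutrophils, beside 3.31% higher and 3.46% lower among all genes there. *Il4* and *Il13*, chosen for mention after their values were seen, had 0 counts in all 4 libraries.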
